A study of Homo sapiens with 15 samples.

Results

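Humanin-like nuclear copies of MT-RNR2 are genes whose sequence was derived from the mitochondrial 16S rRNA gene and now lies in the nuclear chromosomes. The members were the 10 genes named MTRNR2L1 to MTRNR2L10, chosen by gene name among the 60107 genes listed in each file. Values were read in 15 libraries of MIA PaCa-2, a human pancreatic carcinoma cell line, in 5 groups of 3. All groups were the same line and were harvested after 24 h. The groups were vehicle (labelled Ctrl), Lys05 at 5 µM, BAQ12 at 5 µM, BAQ13 at 5 µM, and BAQ12O, which the series text lists as 12O, also at 5 µM. Lys05 is a dimeric chloroquine that accumulates in lysosomes. BAQ12 and BAQ13 are compounds of the study that act on lysosomes and assemble into nanoparticles by themselves, and BAQ12O is known here by its label alone. The question was how far each copy differed from vehicle under each agent, and how far it differed from MT-RNR2 itself. The family was proposed with results of these libraries in view, so the calls given for it are a description and support nothing further.

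MT-RNR2 encodes the 16S RNA of the mitochondrial ribosome. A short open reading frame inside it encodes humanin, a small peptide known for protecting cells from apoptosis, which binds BAX and IGFBP3 and signals through receptors that include IL6ST. The nuclear copies carry versions of the same reading frame, and several are predicted to encode humanin-like peptides. Because the copies resemble the mitochondrial gene, which is far more abundant, reads of the copies and of MT-RNR2 can be hard to separate.

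The humanin stretch is shown for the mitochondrial gene and for the 5 copies with enough reads to be tested. Except for MTRNR2L9 it is a small part of each transcript, and bases outside it differ as well. Over the aligned bases, MTRNR2L1 differed from MT-RNR2 at 162 and MTRNR2L8 at 88, so the stretch alone does not decide which reads can be separated. The sequences are GENCODE release 29 transcripts (GRCh38), read along the strand of each gene. Capitals mark bases that differ from the MT-RNR2 sequence when both are laid side by side without gaps. The positions were chrM:2633-2707 (plus strand) for MT-RNR2, chr17:22524062-22524136 (plus) for MTRNR2L1, chr20:57358965-57359039 (minus) for MTRNR2L3, chr10:37601970-37602044 (minus) for MTRNR2L7, chr11:10508152-10508226 (minus) for MTRNR2L8 and chr6:61574328-61574402 (plus) for MTRNR2L9.
MT-RNR2: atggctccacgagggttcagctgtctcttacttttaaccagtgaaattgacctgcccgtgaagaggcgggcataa
MTRNR2L1: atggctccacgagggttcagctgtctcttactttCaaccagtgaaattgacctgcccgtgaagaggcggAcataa
MTRNR2L3: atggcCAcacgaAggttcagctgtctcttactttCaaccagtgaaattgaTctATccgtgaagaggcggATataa
MTRNR2L7: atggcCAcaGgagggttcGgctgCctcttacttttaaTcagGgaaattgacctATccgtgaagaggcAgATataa
MTRNR2L8: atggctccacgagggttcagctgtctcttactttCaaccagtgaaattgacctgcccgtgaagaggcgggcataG
MTRNR2L9: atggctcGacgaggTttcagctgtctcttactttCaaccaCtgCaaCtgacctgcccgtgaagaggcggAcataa

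Over these 75 bases, MTRNR2L1 and MTRNR2L8 differed from MT-RNR2 at 2 positions, MTRNR2L9 at 7, MTRNR2L3 at 9 and MTRNR2L7 at 12. In MTRNR2L1, MTRNR2L3, MTRNR2L7 and MTRNR2L8, which are annotated as protein coding, the coding region started at the first base shown and the rest of the single exon was non-coding. MTRNR2L9 is annotated as a processed pseudogene, and its gene model covers the 75 bases shown and nothing else. The MTRNR2L2 model, also a processed pseudogene, covers 65 bases of the same stretch, with 1 difference.

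Over the whole aligned length, the tested copies were between 83.2% and 93.2% identical to MT-RNR2. MTRNR2L8 was the closest of them at 93.2%, and 112 of its windows of 50 bases (8.93%) occurred unchanged in MT-RNR2. MTRNR2L1 was 89.5% identical, with 11 such windows (0.731%). MTRNR2L3 was 84.7% identical, MTRNR2L7 83.2% and MTRNR2L9 90.7%, and none of the 3 had a single unchanged window. The copies also shared windows with each other, which held for 19.6% of the windows of MTRNR2L8, 2.00% of those of MTRNR2L1 and under 1% of those of MTRNR2L3 and MTRNR2L7. MTRNR2L8 shared 221 windows with MTRNR2L12, a copy of the family outside the members.

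The genes lie apart in the genome, at chr17:22523111-22524663 (MTRNR2L1, plus strand), chr20:57358442-57359980 (MTRNR2L3, minus), chr10:37601440-37602974 (MTRNR2L7, minus) and chr11:10507887-10509189 (MTRNR2L8, minus). MTRNR2L3 lies within the span of RAE1, a nuclear export factor gene on the opposite strand, and overlaps none of its exons. An exon of AC132825.2 overlaps MTRNR2L1 on the opposite strand, and the microRNA gene MIR4485 lies within MTRNR2L8 on the same strand. The strand setting used for counting is not stated, so reads of overlapping genes cannot be told apart there. RAE1 itself held 180 ± 4.92 normalised counts (SD, n = 3) with vehicle and group means of 160 to 176 with the 4 agents.

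Values are read counts per gene divided by a size factor per library, called normalised counts below. The libraries held 1586566 to 2500551 reads on genes (median 2230594), and MT-RNR2 alone took 7.83% to 10.9% of them. BAQ12 replicate 3 and BAQ13 replicate 1 stood apart from the other libraries of their groups. Their counts differed from those of the other replicates with a chi-square per gene of 13.5 and 11.4 for BAQ12 and of 3.40 and 6.21 for BAQ13, against 1.06 to 1.77 for the other pairs of replicates. The share of reads on mitochondrial genes was 20.6% and 18.7% in these libraries and 15.8% to 16.8% in the other libraries of both groups. The tests of the copies against vehicle are therefore given with and without them. Among markers of the epithelial cell type in the labels, KRT8, KRT18 and KRT19 were present in all libraries (175 to 970 normalised counts), but EPCAM had 1 read and CDH1 17 reads in all 15 libraries. Of the mesenchymal markers, VIM (9198 to 10781) and ZEB1 (107 to 185) were present, but CDH2 had 1 read in all. The acinar markers (PRSS1, CPA1, CTRB1 and CELA3A) were at 0. Among fibroblast markers, DCN and LUM were at 0 and COL1A1 had 12 reads, whereas COL1A2 (148 to 252) was detected. Among leukocyte markers, CD3E was at 0, and PTPRC, CD68 and CD14 had 10, 56 and 53 reads. Among endothelial markers, PECAM1 was at 0 and VWF had 1 read, whereas CDH5 (23.9 to 75.3) was detected.

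Reads were found for 9 of the 10 copies. MTRNR2L3 had the most, with 1742 reads in the 15 libraries, followed by MTRNR2L1 with 728, MTRNR2L8 with 602, MTRNR2L7 with 279, MTRNR2L10 with 101 and MTRNR2L9 with 71. MTRNR2L4 had 49 reads, MTRNR2L6 31 and MTRNR2L5 2. MTRNR2L2 had 0 reads in every library, where 3 reads, the limit that a count of 0 allows, correspond to 2.49 to 4.14 normalised counts. In all, 5 copies passed the filter on low counts (MTRNR2L1, MTRNR2L3, MTRNR2L7, MTRNR2L8 and MTRNR2L9), and 5 did not. MTRNR2L9 passed with 71 reads and MTRNR2L10 failed with 101, since the filter asks for a scaled count of about 10 in at least 3 libraries. MTRNR2L7 and MTRNR2L9 reached it only through treated libraries, in 12 of 12 and 4 of 12 of them and in 0 of 3 vehicle libraries, so their differences from vehicle were to that extent fixed by the filter. The other 3 tested copies reached it in all 15.

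Per kilobase of transcript, the mean level with vehicle was 38.9 normalised counts for MTRNR2L3, 23.5 for MTRNR2L8, 16.7 for MTRNR2L1 and 4.09 for MTRNR2L7, against 106322 for MT-RNR2. In this order, the ranges of the 3 vehicle libraries overlapped between MTRNR2L3 and MTRNR2L8 and between MTRNR2L8 and MTRNR2L1. MTRNR2L7 lay below the other 3 in every vehicle library. The sources name both a 3′-end kit and a whole-transcript kit, and counts from a 3′-end kit do not scale with length.

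MT-RNR2, the reference, was higher in every treated library than in every vehicle library. Its normalised counts were 162535, 171087 and 163647 with vehicle, 194413, 200515 and 200408 with Lys05 and 182816, 188179 and 240360 with BAQ12. They were 212810, 190715 and 190904 with BAQ13 and 206181, 200342 and 225427 with BAQ12O. The log2 fold changes were 0.26, 0.29, 0.26 and 0.34 for Lys05, BAQ12, BAQ13 and BAQ12O (SE 0.10 each), and none passed an adjusted p of 0.05 in limma (0.83, 0.25, 0.15 and 0.11, Benjamini-Hochberg over 10495 genes). Without BAQ12 replicate 3, the SE of the other agents fell to 0.06 and the adjusted p was 0.0449 for Lys05, 0.00468 for BAQ13 and 0.000638 for BAQ12O, whereas the change with BAQ12 itself was 0.16 (adjusted p = 0.419). MT-RNR1, which encodes the other mitochondrial rRNA (12S), rose with all 4 agents, by 0.81, 0.71, 0.58 and 0.68 on the log2 scale (limma adjusted p 0.0011, 0.0023, 0.0044 and 0.0033).

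MTRNR2L7 was called with BAQ12 and BAQ13, having entered the test through treated libraries alone. It carries a humanin-like reading frame that is the most diverged of the tested copies. It held 6.64, 6.70 and 5.51 normalised counts with vehicle, 10.6, 20.8 and 19.6 with Lys05 and 16.5, 34.0 and 49.0 with BAQ12. With BAQ13 it held 27.1, 16.4 and 15.9, and with BAQ12O 11.9, 19.1 and 19.3. Every treated library lay above every vehicle library, and the highest values were those of BAQ12 replicates 2 and 3. Against vehicle, MTRNR2L7 rose with BAQ12 by 2.11 on the log2(value + 1) scale (SE 0.36, limma adjusted p = 0.0041) and with BAQ13 by 1.48 (SE 0.36, adjusted p = 0.0193). The log2 fold change was 1.26 with Lys05 (adjusted p = 0.44) and 1.26 with BAQ12O (adjusted p = 0.10), neither past the threshold. Its reads numbered 20 with vehicle, 51 with Lys05, 97 with BAQ12, 66 with BAQ13 and 45 with BAQ12O. With both libraries that stood apart left out, the changes were 1.77 with BAQ12 (adjusted p = 0.00067) and 1.24 with BAQ13 (adjusted p = 0.0115), and those with Lys05 (adjusted p = 0.0254) and BAQ12O (adjusted p = 0.0051) also passed. Leaving out single libraries kept the BAQ12 call in 15 of 15 fits. The BAQ13 call was lost without BAQ13 replicate 1 (adjusted p = 0.0997) and without vehicle replicate 1, 2 or 3 (0.0521, 0.0588 and 0.0809). The BAQ12O difference passed without BAQ12 replicate 1 (adjusted p = 0.0443) or 3 (0.0179).

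MTRNR2L9, the short copy limited to the humanin stretch, was almost without reads in vehicle. It held 0.83, 0 and 0 normalised counts with vehicle, 3.19, 12.5 and 12.1 with Lys05, 4.59, 5.10 and 10.05 with BAQ12, 10.3, 3.65 and 1.68 with BAQ13 and 1.08, 2.86 and 2.76 with BAQ12O. These values stood for 1 read with vehicle and 28, 19, 17 and 6 reads with the 4 agents. The ratio of counts to vehicle, scaled by the size factors, was 30.1 with Lys05 (95% interval 4.97 to 1229), 19.8 with BAQ12 (3.15 to 822), 16.1 with BAQ13 (2.53 to 674) and 7.08 with BAQ12O (0.859 to 326). The intervals cover counting error only, and only that of BAQ12O included 1. MTRNR2L9 entered the test through treated libraries alone and had 1 read with vehicle. Nothing is therefore read from these ratios or from the calls that follow. In limma, MTRNR2L9 was called with BAQ12 (adjusted p = 0.0449) and BAQ13 (adjusted p = 0.0438) and missed the threshold with Lys05 (adjusted p = 0.0504) and BAQ12O (adjusted p = 0.33). Both calls lay close to the threshold and depended on single libraries. The BAQ12 call held in 3 of 15 fits, without Lys05 replicate 1 (0.0313), BAQ13 replicate 1 (0.0288) or BAQ13 replicate 3 (0.0354), and reached 0.22 in the others. The BAQ13 call held in 5 of 15 fits, without Lys05 replicate 1 (0.0317), BAQ12 replicate 1 (0.0461) or 3 (0.0163), BAQ13 replicate 3 (0.0247) or BAQ12O replicate 1 (0.0484), and reached 0.223 without BAQ13 replicate 1. The difference with Lys05 passed without Lys05 replicate 1 (0.0184), BAQ12 replicate 3 (0.0106), BAQ13 replicate 1 (0.0274) or BAQ13 replicate 3 (0.0350). With both libraries that stood apart left out, the limma adjusted p was 0.00245 with Lys05, 0.0584 with BAQ12, 0.137 with BAQ13 and 0.156 with BAQ12O.

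MTRNR2L3, the copy with the most reads, held 66.4, 48.0 and 65.2 normalised counts with vehicle, 103, 104 and 107 with Lys05 and 89.0, 91.0 and 377 with BAQ12. It held 243, 101 and 72.9 with BAQ13 and 89.5, 109 and 106 with BAQ12O. All treated libraries lay above all vehicle libraries, and the top values were those of the 2 libraries that stood apart. The means were 59.9 ± 10.3 with vehicle, 105 ± 2.14 with Lys05, 186 ± 166 with BAQ12, 139 ± 90.9 with BAQ13 and 101 ± 10.4 with BAQ12O (SD, n = 3). The log2 fold changes were 0.81, 1.28, 1.02 and 0.76 (SE 0.43), and none passed (limma adjusted p 0.9994, 0.24, 0.20 and 0.49). With both libraries left out, the changes were 0.81 for Lys05, 0.59 for BAQ12, 0.53 for BAQ13 and 0.76 for BAQ12O, and all 4 passed (limma adjusted p 5.857e-05, 0.0160, 0.0128 and 6.549e-05). Leaving out BAQ12 replicate 3 alone brought the BAQ13 difference past the threshold (adjusted p = 0.00317).

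MTRNR2L1, close to humanin in sequence, held 22.4, 26.8 and 28.5 normalised counts with vehicle and 37.3, 39.6 and 52.3 with Lys05. With BAQ12 it held 35.8, 47.6 and 117, with BAQ13 87.7, 47.4 and 33.5, and with BAQ12O 43.1, 56.3 and 60.7. The treated libraries again did not overlap with vehicle, and BAQ12 replicate 3 and BAQ13 replicate 1 were again the highest. The log2 fold changes were 0.70, 1.15, 0.98 and 1.01 (SE 0.35), and none passed (limma adjusted p 0.9994, 0.18, 0.12 and 0.21). With both libraries left out, the change with BAQ12O (1.01) passed (limma adjusted p = 0.000215), and those with Lys05 (0.70), BAQ12 (0.66) and BAQ13 (0.61) did not (0.0620, 0.112 and 0.0522). Without BAQ12 replicate 3 alone, the adjusted p was 0.00528 with BAQ13 and 0.0105 with BAQ12O.

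MTRNR2L8, the tested copy closest to MT-RNR2, overlapped with vehicle in every group. It held 26.6, 41.3 and 23.9 normalised counts with vehicle, 46.9, 30.2 and 48.5 with Lys05 and 40.4, 41.7 and 49.0 with BAQ12. It held 55.1, 37.4 and 36.9 with BAQ13 and 31.3, 44.8 and 41.4 with BAQ12O. The highest vehicle library, replicate 2, lay above 5 of the 12 treated libraries. The log2 fold changes were 0.45, 0.53, 0.50 and 0.37 (SE 0.24), none past the threshold (limma adjusted p 0.9994, 0.41, 0.27 and 0.55). The 95% intervals ran from -0.05 to 0.95 with Lys05, 0.03 to 1.04 with BAQ12, -0.01 to 1.00 with BAQ13 and -0.13 to 0.87 with BAQ12O. With both libraries that stood apart left out, the changes were 0.45, 0.45, 0.31 and 0.37, and none passed (limma adjusted p 0.433, 0.451, 0.449 and 0.279).

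**Figure D1:**
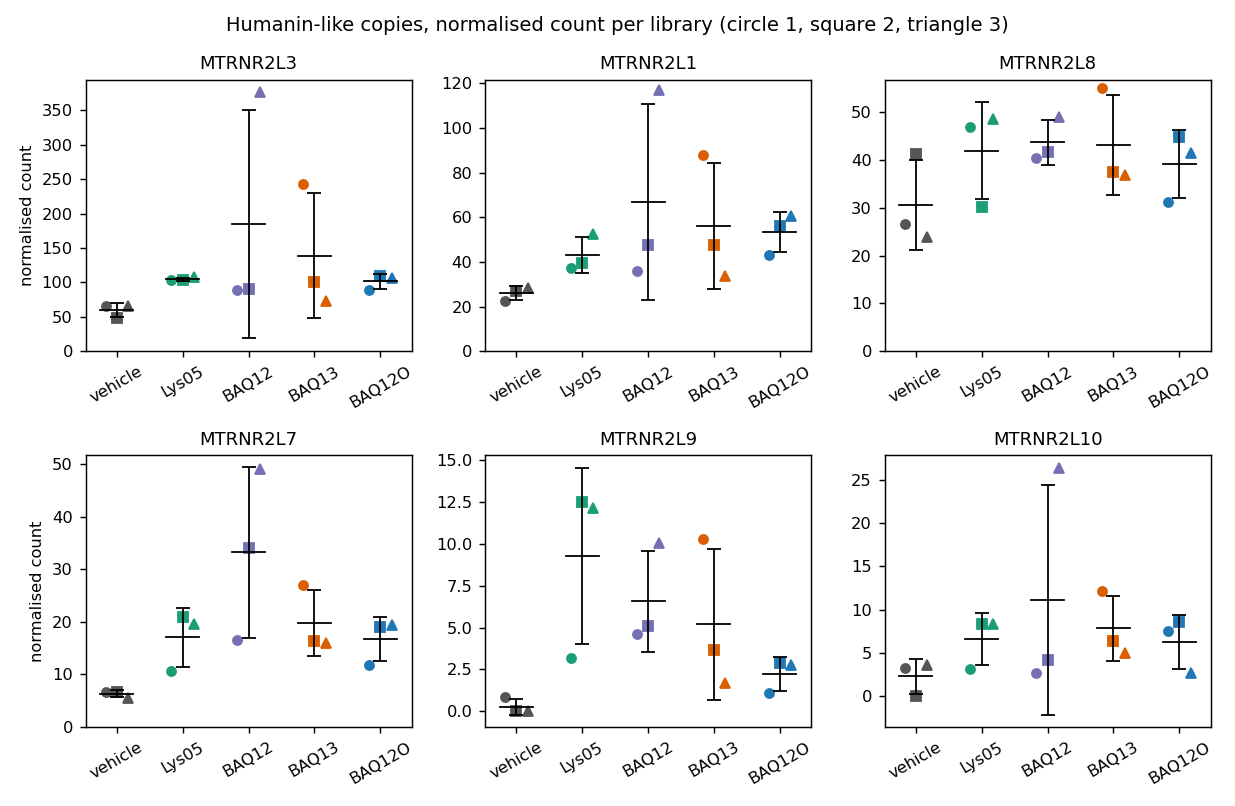
Normalised counts (linear axis) of the 5 tested copies and MTRNR2L10 in each of the 15 libraries, by group, with horizontal bars at the mean and error bars of 1 SD (n = 3). For MTRNR2L3 and MTRNR2L1 the points farthest from their groups are BAQ12 replicate 3 (triangle, 377 and 117) and BAQ13 replicate 1 (circle, 243 and 87.7).

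Of the copies below the filter, MTRNR2L10 had the most reads. It held 3.32, 0 and 3.67 normalised counts with vehicle, 3.19, 8.33 and 8.40 with Lys05, 2.75, 4.25 and 26.4 with BAQ12, 12.1, 6.38 and 5.03 with BAQ13 and 7.55, 8.58 and 2.76 with BAQ12O. Its libraries lay above those of vehicle without overlap with BAQ13 (as 14.5% of all genes tested did) and overlapped with the other agents. With 8 reads in vehicle and 20, 29, 26 and 18 with the agents, the count ratios were 2.68 (95% interval 1.13 to 7.05), 3.78 (1.68 to 9.56), 3.08 (1.36 to 7.88) and 2.66 (1.10 to 7.06), which cover counting error only. MTRNR2L4 had 8 reads with vehicle and 8, 12, 12 and 9 with the agents, and MTRNR2L6 5 and 4, 9, 4 and 9. All their intervals included a ratio of 1, so no difference was detectable at this depth. The 2 reads of MTRNR2L5 came from 1 vehicle and 1 BAQ12O library.

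Counted over the members, 0 of 10 were called with Lys05, where 0.238% of the genes tested were called. With BAQ12, 2 were called against 0.981% of all genes, with BAQ13 2 against 5.77%, and with BAQ12O 0 against 1.48%. The called copies were MTRNR2L7 and MTRNR2L9 in both cases, the 2 that passed the filter only through treated libraries, so nothing is read from these counts. When 10 reads were required in every library, neither was tested and the counts were 0 with BAQ12 and 0 with BAQ13. At an unadjusted limma p under 0.05, 2 copies passed with Lys05, 5 with BAQ12, 4 with BAQ13 and 3 with BAQ12O. MTRNR2L7 and MTRNR2L9 were among them with every agent. Of the 10495 genes tested, 523, 1239, 2041 and 1339 passed with the agents in this order. edgeR's quasi-likelihood test and DESeq2 also called 0 with Lys05 and with BAQ12O. The study's own rule asked for a 2-fold change and an unadjusted p no higher than 0.05, with a t test on normalised counts. Here the same limits were set on the limma log2 fold change and its unadjusted p, which is another measure. Under these limits, 2 copies passed with Lys05 (0.543% of all genes), 4 with BAQ12 (1.03%), 3 with BAQ13 (2.16%) and 3 with BAQ12O (0.953%). MTRNR2L7 and MTRNR2L9 were again included with every agent and were the only ones with Lys05. Both entered the test through treated libraries alone, so nothing is read from these counts or from those at the unadjusted p. Without the 2 libraries that stood apart, the adjusted test called 3 with Lys05 (MTRNR2L3, MTRNR2L7 and MTRNR2L9), 2 with BAQ12 and 2 with BAQ13 (MTRNR2L3 and MTRNR2L7) and 3 with BAQ12O (MTRNR2L1, MTRNR2L3 and MTRNR2L7). The share of all genes called in that fit is not given, so nothing is read from these counts either. MTRNR2L1, MTRNR2L3, MTRNR2L7 and MTRNR2L9 lay above vehicle without overlap under every agent. For MTRNR2L7 and MTRNR2L9 the filter helped to fix this, so only MTRNR2L1 and MTRNR2L3 can be set beside the shares that follow. Of all genes tested, 8.24% did so with Lys05, 7.75% with BAQ12, 14.5% with BAQ13, 12.5% with BAQ12O and 1.66% with all 4. The comparisons share the same vehicle libraries. In lysates of whole cultures, more RNA per cell and more cells with such RNA cannot be told apart.

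**Figure D2:**
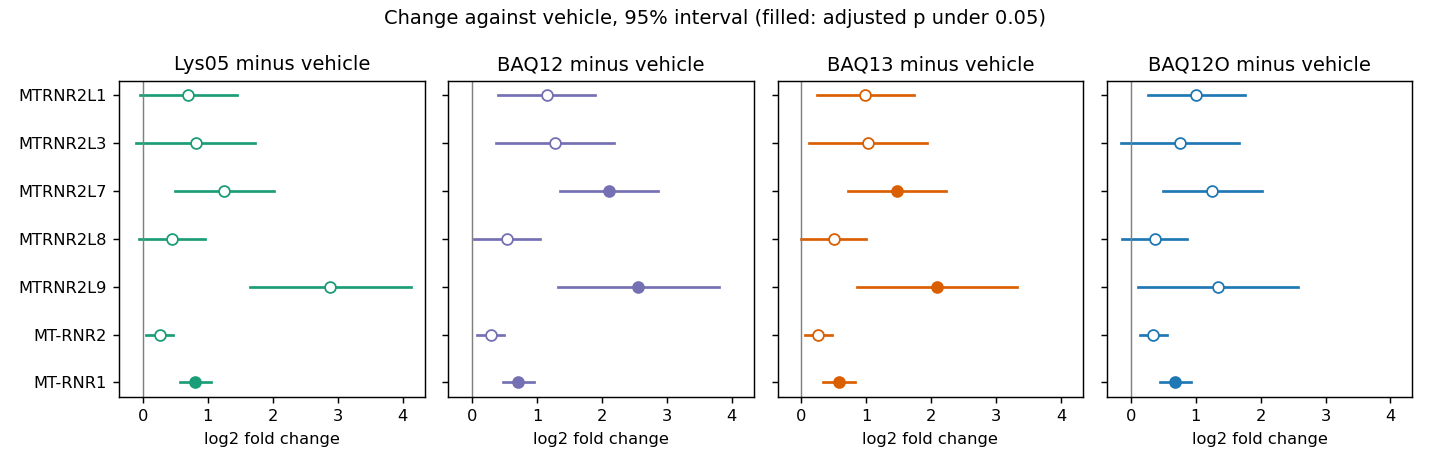
Log2 fold change against vehicle on the log2(value + 1) scale with 95% intervals, for the 5 tested copies, MT-RNR2 and MT-RNR1, in 1 panel per agent. Filled points have a limma adjusted p under 0.05, which holds for MTRNR2L7 and MTRNR2L9 with BAQ12 and BAQ13 and for MT-RNR1 in every panel.

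The agents were given at 1 dose and time, and the 6 pairs among them were compared directly. Of 30 combinations of a tested copy and a pair, 0 were called in limma (the share of all genes called was 0.162% for BAQ12 against Lys05, 2.66% for BAQ13 against Lys05, 0.248% for BAQ12O against Lys05, 0.562% for BAQ13 against BAQ12, 0.229% for BAQ12O against BAQ12 and 1.39% for BAQ12O against BAQ13). edgeR and DESeq2 also called 0. An unadjusted limma p under 0.05 was met by 3 of the 30 combinations. Of the 10495 genes tested, 752, 1532, 772, 868, 879 and 1180 met it for the 6 pairs in the same order. Nothing is therefore read from these 3. Among them was MTRNR2L7, higher with BAQ12 than with Lys05 by 0.85 (95% interval 0.09 to 1.61, adjusted p = 0.65 in limma) and lower with BAQ12O than with BAQ12 (-0.85, interval -1.61 to -0.09, adjusted p = 0.52). The other was MTRNR2L9, lower with BAQ12O than with Lys05 (-1.54, interval -2.78 to -0.31, limma adjusted p = 0.52). That combination was the only 1 of the 30 to meet the study's limits in limma as well. These limits were met by 0.495%, 1.29%, 0.6%, 0.619%, 0.476% and 0.896% of all genes for the 6 pairs in the same order. The intervals left room for sizeable differences. Over the 6 pairs they reached from -0.92 to 1.20 for MTRNR2L1, from -1.43 to 1.38 for MTRNR2L3 and from -0.67 to 0.59 for MTRNR2L8.

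Set against MT-RNR2, the sum of the 10 copies was 78.3 ± 2.95 per 100000 MT-RNR2 counts with vehicle, 114 ± 10.9 with Lys05, 165 ± 89.0 with BAQ12, 137 ± 63.0 with BAQ13 and 107 ± 16.7 with BAQ12O (SD, n = 3). The 3 vehicle libraries lay between 75.1 and 80.8, and the lowest treated library, BAQ13 replicate 3, at 88.2. The highest were BAQ12 replicate 3 at 267 and BAQ13 replicate 1 at 208, while the other treated libraries did not exceed 127. MTRNR2L3 was the largest part of the sum, with 59.9 of 130 normalised counts in the mean of the vehicle group.

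**Figure D3:**
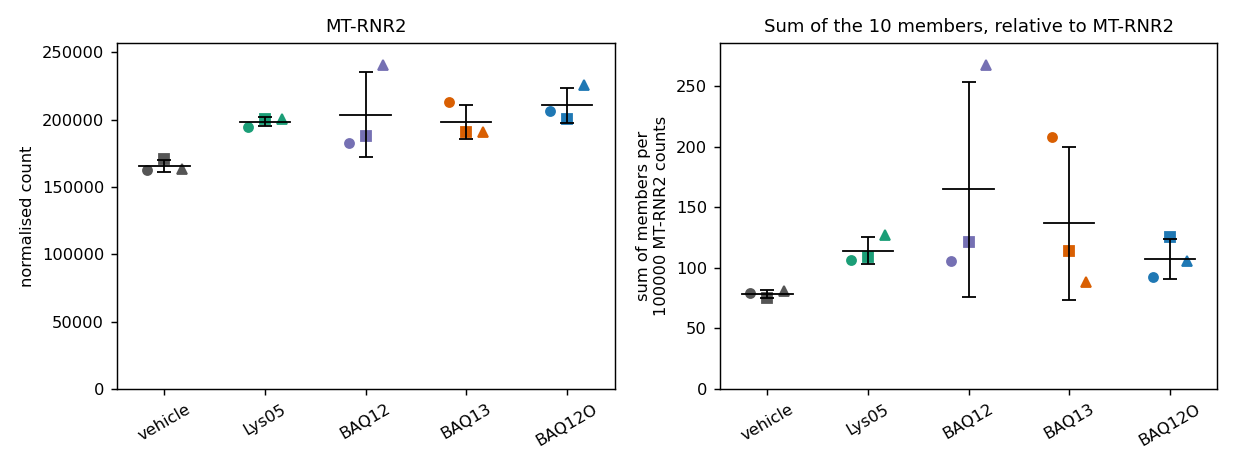
Left, normalised counts of MT-RNR2 per library; right, the sum of the 10 copies per 100000 MT-RNR2 counts, both on linear axes from 0, with mean and SD (n = 3; circle, square and triangle are replicates 1, 2 and 3). All treated libraries are above the vehicle libraries in both panels, and BAQ12 replicate 3 (267) and BAQ13 replicate 1 (208) stand apart on the right.

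When each gene was expressed relative to MT-RNR2 in the same library and refitted, the median change of all genes moved to -0.26, -0.29, -0.26 and -0.35 with Lys05, BAQ12, BAQ13 and BAQ12O. On this scale, 4 combinations of a copy and an agent were called, where the share of all genes called was 0.791%, 2.47%, 9.72% and 15.7%. MTRNR2L7 rose relative to MT-RNR2 with BAQ12 by 1.82 (limma adjusted p = 0.0084) and with BAQ13 by 1.22 (adjusted p = 0.0272). MTRNR2L9 was called with Lys05 (2.63, limma adjusted p = 0.0409) and BAQ12 (2.27, adjusted p = 0.0461). Both copies had entered the test only through treated libraries, and 0 combinations were called when 10 reads were required in every library. MTRNR2L8, the tested copy most like MT-RNR2, had the smallest differences relative to it among the 5, at 0.19, 0.25, 0.24 and 0.03 (limma adjusted p 0.61, 0.46, 0.49 and 0.94). Without the 2 libraries that stood apart, MTRNR2L7 kept both calls (1.61, adjusted p = 0.00277, and 1.04, adjusted p = 0.0270), MTRNR2L9 with BAQ12 did not (2.09, adjusted p = 0.0568), and 8 combinations were called in all. The share of all genes called in that fit is not given, so nothing is read from the 8.

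Over the 15 libraries, the log2 values correlated with those of MT-RNR2 with Pearson's r of 0.899 for MTRNR2L1, 0.815 for MTRNR2L3, 0.796 for MTRNR2L7, 0.659 for MTRNR2L9 and 0.613 for MTRNR2L8. Without the 2 libraries that stood apart (13 libraries), these values were 0.872, 0.777, 0.680, 0.564 and 0.508. The points share the library and its size factor, and the vehicle group is low in all of these genes.

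MTRNR2L12, a further copy outside the 10 members, gives the same comparison at greater depth. It is 95.3% identical to MT-RNR2, and 15.3% of its windows of 50 bases occur unchanged there. It had 18657 reads in all, with 1032 ± 15.7 normalised counts with vehicle, 1145 ± 29.5 with Lys05, 1435 ± 669 with BAQ12, 1251 ± 395 with BAQ13 and 1359 ± 98.4 with BAQ12O. Its log2 fold changes were 0.15, 0.38, 0.23 and 0.39, none past the threshold (limma adjusted p 0.9994, 0.49, 0.64 and 0.49). Without the 2 libraries that stood apart, the changes of MTRNR2L12 were 0.15, 0.02, -0.01 and 0.39, and that with BAQ12O passed (limma adjusted p 0.435, 0.960, 0.973 and 4.226e-05). MTRNR2L12 and MTRNR2L8 had smaller fold changes than the 4 other tested copies under every agent, as the plot of change against identity shows. MTRNR2L12 and MTRNR2L8 are 95.5% identical to each other and share 221 windows of 50 bases. Whether their counts share reads was not tested. MTRNR2L11 had 70 reads and MTRNR2L13 3, both below the filter.

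**Figure D4:**
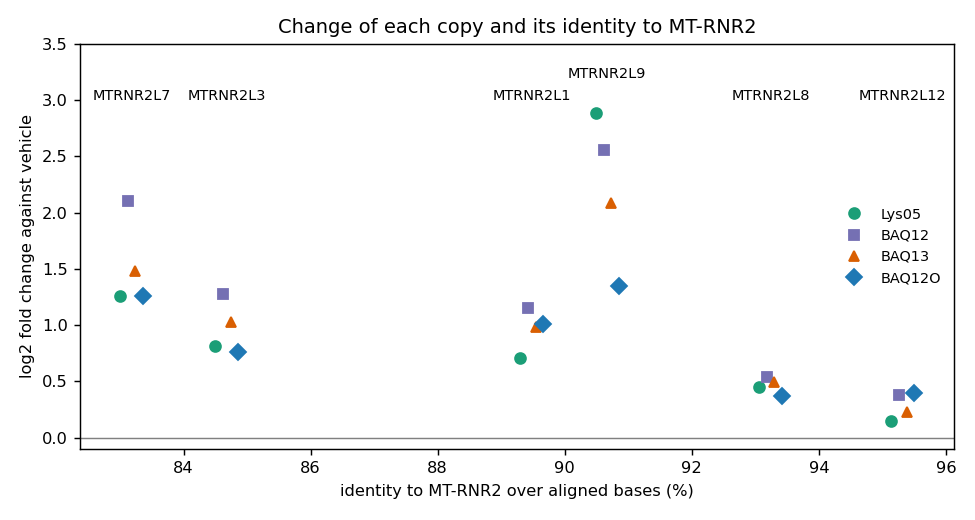
Log2 fold change against vehicle (vertical axis) of the 5 tested copies and MTRNR2L12 against their identity to MT-RNR2 over the aligned bases (horizontal axis, %), with 1 symbol per agent, shifted slightly sideways for legibility. MTRNR2L8 (93.2%) and MTRNR2L12 (95.3%) do not exceed 0.53 with any agent. MTRNR2L9 (90.7%, 75 aligned bases) has the largest values with every agent, which rest on 1 vehicle read and depend on the added 1, and MTRNR2L7 (83.2%) is next.

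Among all genes tested, those whose log2 values followed MTRNR2L3 most closely over the 15 libraries were TBC1D22A (r = 0.963), NFKBIL1 (0.962) and GIGYF2 (0.960), which fell to 0.845, 0.814 and 0.864 in the 13 libraries without the 2 that stood apart. MTRNR2L1 was followed most closely by MT-TT (0.948) and MT-TY (0.946), mitochondrial tRNA genes for threonine and tyrosine, and by PPP2R3B (0.934). For MTRNR2L8 they were TNK2 (0.849), NXN (0.807) and IFT27 (0.802), and for MT-RNR2 they were MT-TL1 (0.916), MT-RNR1 (0.916) and RP11-1113L8.7 (0.902). In the 13 libraries, the values in the same order were 0.864, 0.869 and 0.841 for MTRNR2L1 and 0.803, 0.736 and 0.734 for MTRNR2L8. For MT-RNR2 they were 0.911, 0.907 and 0.845. These are descriptions of 15 libraries that share groups and size factors.

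The genes through which humanin is known to act were tested beside the copies. Of the 14 listed, 10 passed the filter (not FPR2, FPR3, CNTFR and IGFBP3), and 0 were called with any agent in limma, with median log2 fold changes of -0.05, 0.11, 0.04 and -0.10 against about 0 for all genes. STAT3, the transcription factor that humanin receptors signal to, held 187 ± 17.3 normalised counts with vehicle and 208, 255, 250 and 219 in the means with Lys05, BAQ12, BAQ13 and BAQ12O. BID, a proapoptotic protein, held 172 ± 14.7 with vehicle and 157, 144, 135 and 160 with the agents. TRIM11, a ubiquitin ligase that binds humanin, held 149 ± 8.04 and 140, 123, 185 and 132, and JAK1, a kinase of cytokine receptors, 118 ± 9.67 and 118, 129, 125 and 140.

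Most mitochondrial mRNAs fell. All 13 genes were tested, and all but MT-ND6 were lower with every agent. The falls called in limma numbered 12 with Lys05, 12 with BAQ12, 12 with BAQ13 and 9 with BAQ12O. Of all genes tested, 0.238%, 0.981%, 5.77% and 1.48% were called in either direction. The median log2 fold changes of the 13 genes were -2.21, -1.70, -1.35 and -0.59. MT-ATP6, a subunit of ATP synthase, fell from 14310 ± 358 normalised counts with vehicle to 2602 ± 107 with Lys05 and 8255 ± 1201 with BAQ12O. MT-CO3 (a subunit of cytochrome c oxidase), MT-ND3 and MT-ND2 (subunits of complex I) were the next largest with Lys05, at -2.40, -2.34 and -2.33. MT-ND6, encoded on the opposite strand of the mitochondrial genome to the rest, was the exception and rose with every agent, by 1.08, 1.10, 0.99 and 0.67.

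Nuclear copies of other mitochondrial genes were compared in the same way. Of 176 such genes in the files, 4 passed the filter. All 4 were lower with every agent. In limma, the falls of MTATP6P1, MTND4P12 and MTND2P28 were called with Lys05 (0.238% of all genes called). Those of MTATP6P1 and MTND2P28 were called with BAQ12 (0.981%) and BAQ13 (5.77%), while 0 of the 4 passed with BAQ12O (1.48%). MTATP6P1 held 254 ± 27.4 normalised counts with vehicle, 59.6 ± 2.86 with Lys05, 77.7 ± 6.88 with BAQ12, 145 ± 12.4 with BAQ13 and 184 ± 16.6 with BAQ12O. The median log2 fold changes of the 4 genes were -2.05, -1.76, -1.04 and -0.53, beside those of the mitochondrial mRNAs above. The part that reads of mitochondrial RNA play in the counts of any nuclear copy was not tested.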

How the data were processed

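RNA of MIA PaCa-2 cells was sequenced in 15 libraries, grouped by the sample labels. The deposited values are a normalised expression signal, for which the authors divided each gene's reads by the size factor of its library. The submitters' processing notes name STAR, HTSeq, DESeq2 and GRCh38 (hg38), and versions, the counting of multiply mapped reads and the annotation release are not given in the sources used here. The labels name a 3′-end kit and the study's methods a stranded paired-end kit. All non-zero values were whole multiples of 1 step per library (100%, tolerance 0.01 reads), which gave back the whole reads. Aligners that discard or share reads with several matches would change the values of these copies.

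Genes were filtered with filterByExpr (minimum count 10, total 15), which left 10495. The main test was limma 3.58.1 (eBayes with trend) on log2(value + 1) over all 15 libraries, with Benjamini-Hochberg adjustment over all genes tested and a threshold of 0.05. It was repeated after subtracting the log2 value of MT-RNR2 in each library. edgeR 4.0.16 and DESeq2 1.42.0 were run on the recovered reads in R 4.3.3 as alternatives. limma, edgeR and DESeq2 were run on simulated counts with known changes in BAQ13 against vehicle. The simulation used the same dispersion for every gene and held no library that stood apart. It did not cover the fit relative to MT-RNR2. Count ratios have exact 95% intervals conditional on the total, and floors of 3 reads; both cover counting error only. Sequences, positions and overlaps came from GENCODE release 29, and the files' own annotation may be another release, so gene extents may differ. Local alignments were made with Biopython 1.88, and shared windows were counted at 50 bases. The labels do not say whether replicates were separate cultures, so p-values measure the spread between these libraries, which may be technical.

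The members and lists were chosen with earlier results of these data known. Named genes were the 10 members, MT-RNR2, MT-RNR1, the other copies of the family, the 3 genes most correlated with each of the 3 most abundant tested members and with MT-RNR2, and up to 4 genes of each list, called genes with the largest changes first and otherwise the most abundant. RAE1 and the markers stand beside them as checks. Alternatives covered other tests, pseudocounts, size factors, filters, the libraries in the fit, a replicate block, the study's limits set on the limma fit and leaving out libraries.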

Additional observations from a re-analysis of the deposited data

How the results depend on the processing

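No direction of a member's change against vehicle was reversed under any alternative run. The number of copies called was 0 with Lys05, 2 with BAQ12, 2 with BAQ13, 0 with BAQ12O, 0 between agents and 4 relative to MT-RNR2. edgeR and DESeq2 each called 1 with BAQ12 and 1 with BAQ13. These were MTRNR2L7 in edgeR. In DESeq2 they were MTRNR2L1 with BAQ12 and MTRNR2L7 with BAQ13, where MTRNR2L7 and MTRNR2L9 had no adjusted p with BAQ12 or BAQ12O. A pseudocount of 5 gave 1 with BAQ12, 1 with BAQ13 and 2 relative to MT-RNR2, and a pseudocount of 0.1 gave 1 with Lys05. TMM factors gave 1 with Lys05. Without a filter the counts were 1 with BAQ12, 1 with BAQ13 and 1 relative to MT-RNR2. Requiring 10 reads in every library removed MTRNR2L7 and MTRNR2L9 and left 0 with BAQ12, 0 with BAQ13 and 0 relative to MT-RNR2. Fitting only the libraries compared gave 3 with Lys05, 0 with BAQ12, 3 with BAQ12O and 7 relative to MT-RNR2, and the adjusted p of MTRNR2L7 with BAQ12 was then 0.109. The study's limits, set on the limma fit, gave 2 with Lys05, 4 with BAQ12, 3 with BAQ12O and 1 between agents. Leaving out BAQ12 replicate 3 and BAQ13 replicate 1 together, chosen after seeing the data, gave 3 with Lys05, 3 with BAQ12O and 8 relative to MT-RNR2. Where not stated by the setting itself, the cause was not tested. Shares of all genes called were given for the main fit and the study's limits only. The counts under other settings, here and below, therefore describe the dependence on the setting alone.

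Leaving out 1 library at a time gave 0 to 1 with Lys05, 1 to 2 with BAQ12, 0 to 4 with BAQ13, 0 to 2 with BAQ12O, 0 between agents and 0 to 9 relative to MT-RNR2. The BAQ13 count was 0 without BAQ13 replicate 1 or any of the vehicle replicates and 4 without BAQ12 replicate 3. The relative count was 9 without BAQ12 replicate 3, 7 without BAQ12 replicate 1 and 0 without vehicle replicate 3.

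The deviations of same-numbered libraries of an agent and vehicle correlated only weakly (r from -0.13 to 0.11). In all, 0 of 3 libraries of Lys05, 0 of BAQ12, 2 of BAQ13 and 1 of BAQ12O correlated best with their own number. The replicate numbers were therefore not treated as pairs in the main fit. With 3 libraries a group, this check cannot show that same-numbered libraries shared no batch. With the replicate number as a block, 1 copy was called with BAQ12, 1 with BAQ13 and 2 relative to MT-RNR2. At this depth, MTRNR2L2 and MTRNR2L4 to MTRNR2L6 could not be compared.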
